A study of Saccharomyces cerevisiae with 7 samples.

Results

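The genes described here encode the assembly factors of the large (60S) ribosomal subunit of Saccharomyces cerevisiae. They are a fixed list of 56 gene symbols, chosen for what their proteins do, and all 56 were found among the 5110 genes with a value in each library. RNA from 7 strains was sequenced, 1 library per strain, to ask what the loss of Fpr3 and Fpr4 does to the transcriptome. Fpr3 and Fpr4 are paralogous nucleolar proteins, prolyl isomerases of the FKBP family that also act as histone chaperones. A survey of 5 libraries held Δfpr3, Δfpr4, Δfpr3Δfpr4, Δsir2 (without the histone deacetylase Sir2) and wild type (BY4741). The Δfpr3, Δfpr4 and Δsir2 strains came from deletion collections isogenic to BY4741, and Δfpr3Δfpr4 was made from Δfpr3 by replacing FPR4 with a NAT marker. The other libraries came from a genetic array cross of a query strain in the Y7092 background to a deletion array isogenic to BY4741. They are Δfpr3Δfpr4Δtrf5 and Δfpr3Δtrf5, of its haploid progeny. Both lack Fpr3 and Trf5, the defining subunit of the TRAMP5 complex that marks nuclear RNA for decay. In that cross FPR3 was replaced by LEU2 and the chromosomal FPR4 by NAT, so that the Fpr4 of Δfpr3Δtrf5 came from a single-copy URA3 plasmid, which Δfpr3Δfpr4Δtrf5 had lost. Levels in these libraries are therefore given beside those of the survey but not compared with them. All strains were grown to midlog phase in rich YPD medium, and each strain stands for single colony isolates. Since each genotype has 1 library, the spread between cultures is unknown, and every test below concerns a pair of libraries, not a pair of genotypes.

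The large subunit begins in the nucleolus, where RNA polymerase I makes a long precursor that is cut into the rRNAs of both subunits. Assembly factors bind this precursor in a set order, fold and modify it, and leave again as the particle moves through the nucleoplasm and the nuclear pore to the cytoplasm. RNA helicases, GTPases and AAA ATPases drive the steps at which factors leave, and most of these proteins are essential for growth in yeast. Their genes form the ribosome biogenesis regulon, which is switched with growth rate. Its promoters are known for a pair of short elements, PAC, which the repressors Dot6 and Tod6 bind, and RRPE, which Stb3 binds.

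The elements were looked for in the 250 bases before each start codon, on both strands, as GATGAG (PAC core), GCGATGAG (a longer PAC that contains the core) and AAAATTTT (RRPE core, its own reverse complement). The PAC core was found upstream of 50 of the 56 genes (89.3%), against 16.9% of 5041 nuclear protein-coding genes. The longer PAC was found in 33 (58.9%, against 4.28%) and the RRPE core in 45 (80.4%, against 9.54%). Both cores were present in 40 of the 56 (71.4%, against 4.64%), and MAK11 alone had neither. The median distance to the start codon was 116 bases for the members' 81 PAC matches (quartiles 97 and 138), against 120 for those of all genes (81 and 177). The quartiles of the PAC distances thus lay closer together in the members, around a similar median. For the members' 51 RRPE matches the median was 134 bases, against 132 for those of all genes. The genes of the small subunit processome, the particle that makes the small subunit, had similar shares (89.3% PAC core and 75% RRPE core), whereas those of the large subunit's ribosomal proteins had 8.64% and 7.41%. A match is a run of letters and was not tested as a binding site.

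The promoter stretches below show this arrangement in MDN1, the member with the most reads, in 6 members called lower in Δfpr4 (DRS1, RPF1, MRT4, NSA2, NOC2 and NUG1) and in NOG2, the member that departed from the others. Each is written 5′ to 3′ in the direction of its gene with 10 flanking bases, and capitals mark the closest pair of a PAC core (GATGAG, or CTCATC where it lies on the other strand) and an RRPE core.
MDN1: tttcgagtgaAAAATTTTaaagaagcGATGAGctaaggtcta
DRS1: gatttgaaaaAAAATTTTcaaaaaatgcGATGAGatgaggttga
RPF1: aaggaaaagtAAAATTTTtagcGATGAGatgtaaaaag
MRT4: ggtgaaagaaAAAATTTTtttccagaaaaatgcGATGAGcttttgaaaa
NSA2: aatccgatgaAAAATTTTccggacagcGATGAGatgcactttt
NOC2: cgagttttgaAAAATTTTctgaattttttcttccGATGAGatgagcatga
NUG1: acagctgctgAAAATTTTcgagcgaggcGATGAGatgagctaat
NOG2: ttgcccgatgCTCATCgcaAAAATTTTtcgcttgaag
These stretches lie at chrXII:363928-363969 (minus strand) for MDN1, chrXII:131582-131625 (plus strand) for DRS1, chrVIII:281374-281411 (plus strand) for RPF1, chrXI:426093-426141 (plus strand) for MRT4, chrV:414295-414337 (minus strand) for NSA2, chrXV:727352-727401 (plus strand) for NOC2, chrV:162592-162635 (plus strand) for NUG1 and chrXIV:723267-723303 (minus strand) for NOG2, in the sacCer3 build. In 7 of the 8 the RRPE core lies farther from the gene than the PAC core, with 4 to 16 bases between them, while NOG2 has the reverse order with a gap of 3 bases. Over the 40 members with both cores, the RRPE core of the closest pair lies farther from the gene in 33, and the other order occurs in EBP2, LOC1, NOG1, NOG2, REI1, RRP15 and TIF6, of which LOC1 and REI1 were called lower in Δfpr4.

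**Figure D1:**
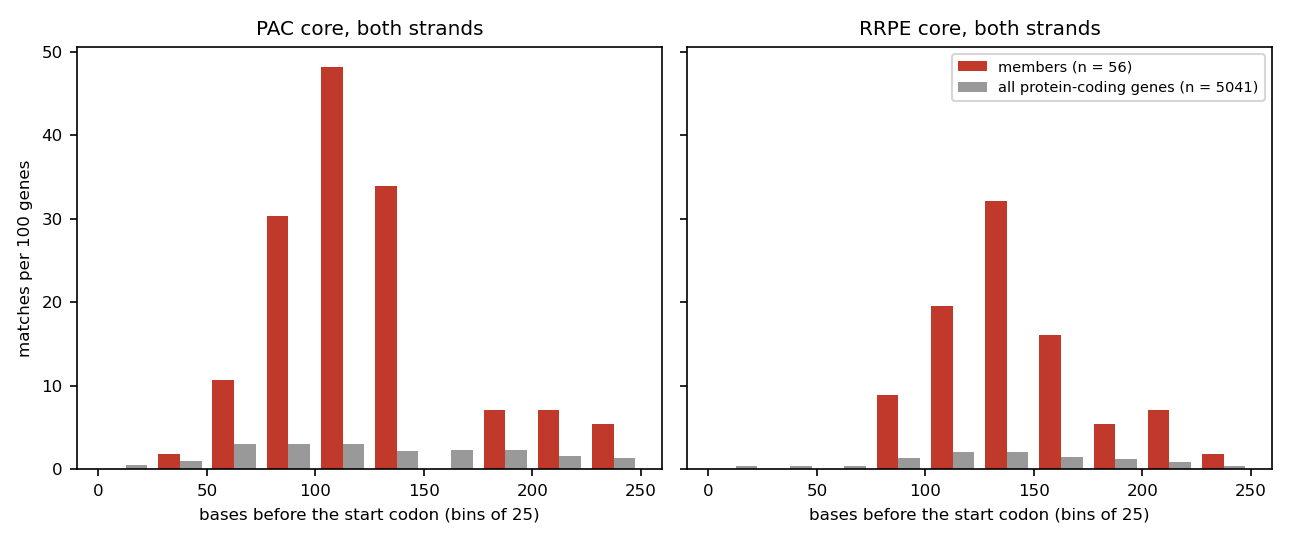
Matches to the PAC core (left) and the RRPE core (right) per 100 genes, in bins of 25 bases counted back from the start codon, for the 56 members and for 5041 nuclear protein-coding genes. Among members, PAC matches peak between 100 and 125 bases (48.2 per 100 genes) and RRPE matches between 125 and 150 bases (32.1 per 100 genes).

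The libraries held between 627679 (Δfpr3Δfpr4Δtrf5) and 1242534 (Δsir2) counted reads, and the median gene had 35 to 55 reads. The deleted genes had 0 reads in the libraries labelled as lacking them, except TRF5 with 2 reads in Δfpr3Δfpr4Δtrf5, which is not above the level of 3 reads that was taken as a floor. The median log2 ratio of all tested genes was -0.10, -0.10, -0.09 and -0.13 in the comparisons of Δfpr3, Δfpr4, Δfpr3Δfpr4 and Δsir2 with wild type, so that most genes sat slightly below wild type at this scaling. It was 0.20 for Δfpr3Δfpr4Δtrf5 over Δfpr3Δtrf5 and at most 0.01 in the other comparisons. Counts of called members are therefore also given after rescaling, with the median of all tested genes set to 0.

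The members lie on 14 chromosomes, are 600 to 14733 bases long with a median of 1462.5, and have the same start and end in the files as in RefSeq. Levels are given as RPKM, reads scaled by gene length in kilobases and by the library's total count, so that they can be compared between genes of different length. The median member had 91.84 RPKM in Δfpr3, 72.26 in Δfpr4, 89.62 in Δfpr3Δfpr4, 95.94 in Δsir2 and 89.61 in wild type, and 109.7 in Δfpr3Δfpr4Δtrf5 against 86.67 in Δfpr3Δtrf5. The most reads over all libraries belonged to MDN1 (8155), NOG1 (4556) and NOP7 (3311). MDN1 is by far the longest member, and per length the highest level was that of TIF6, at 545.26 to 666.85 RPKM in the survey. The fewest reads belonged to RRP14 (124), NOP16 (138) and MAK16 (181), so that only large differences could be seen in these genes.

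Members were summed to ask what share of all counted reads the group took. The share was 1.103% in Δfpr3 (95% Wilson interval 1.084% to 1.123%), 0.8769% in Δfpr4 (0.86% to 0.8941%), 1.031% in Δfpr3Δfpr4 (1.012% to 1.051%), 1.115% in Δsir2 (1.097% to 1.134%) and 1.054% in wild type (1.036% to 1.074%). It was 1.138% in Δfpr3Δfpr4Δtrf5 (1.113% to 1.165%) and 0.9615% in Δfpr3Δtrf5 (0.9406% to 0.9829%). The Δfpr4 library stood lowest of the survey. MDN1 had the most reads of any member in each library, such as 1787 of 12054 in Δfpr3 and 1366 of 11526 in wild type. The shares therefore weigh this gene most. These intervals, like all others given here, reflect counting error and leave out variation between cultures. In RNA from whole cultures, fewer copies per cell cannot be told from fewer cells that express a gene.

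Gene by gene, the Δfpr4 library also held the lowest RPKM of the 5 survey libraries for 37 of the 56 members (66.07%), against 21.06% of the 4877 genes that had over 5 reads in the survey. It held the highest value for 1 member, TIF6 (1.786%, against 16.44% of those genes). Δsir2 held the highest value for 19 members, Δfpr3 for 16, wild type for 12 and Δfpr3Δfpr4 for 8. Wild type was the lowest library for 1 member, ARX1 (1.786%, against 13.61% of those genes).

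A member was called when a chi-square test of its reads in 2 libraries gave an adjusted p under 0.05 (Benjamini-Hochberg over all tested genes) and the ratio of RPKM plus 1 was at least 1.3-fold. All 56 had more than 5 reads in the 2 libraries of each comparison together and were tested. In Δfpr4 over wild type, 18 members were called lower, where 9.27% of 4777 tested genes were, and 0 higher, where 3.87% of genes were. Their median log2 ratio was -0.32, against -0.10 for all genes. After rescaling, 11 were called lower (5.4% of genes) and 1 higher (6.11%), since BRX1, MDN1, MRT4, NOP15, NSA2, REI1 and RLP7 lost their call and NOG2 gained one. In Δfpr3 over wild type, 2 members were called higher (background 4.19%) and 4 lower (background 8.07%), with a median of 0.09 against -0.10. After rescaling these counts were 4 and 1 (6.29% and 4.46% of genes), without DBP6, REI1 and YTM1 and with CIC1 and MAK5. The members' counts were thus well above the background in Δfpr4 and close to it in Δfpr3. Among all tested genes, rescaling moved the balance of calls, and a count of members against wild type is best read beside both.

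In Δfpr3Δfpr4 over wild type, 2 members were called higher (background 5.07%) and 5 lower (background 9.36%), with a median of -0.06 against -0.09. After rescaling, 4 members were called in each direction (7.49% of genes higher and 6.35% lower), with NOP4 lost and DBP7 and IPI1 gained, and the median became 0.03. In Δsir2 over wild type, 5 were called higher (background 5.2%) and 2 lower (background 14.6%), with a median of 0.03 against -0.13, and after rescaling 9 and 2 (8.77% and 9.63% of genes), as BRX1, NOG1, NOP2 and NOP7 were added. In Δfpr3Δfpr4 the members' shares thus lay near those of all genes. In Δsir2 the lower calls stood below the background at either scaling, and the 9 higher calls after rescaling (16.1% of members) stood above it. These comparisons and those of the single mutants share the wild-type library.

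The mutants were then set against each other. In Δfpr3 over Δfpr4, 20 members were called higher (background 5.81%) and 1 lower (background 5.35%), with a median of 0.44 where that of all genes was 0.00. In Δfpr3Δfpr4 over Δfpr4, 11 were called higher (background 3.59%) and 0 lower (background 2.67%), with a median of 0.29 against 0.01. In Δfpr3Δfpr4 over Δfpr3, 1 was called higher (background 5.09%) and 4 lower (background 4.9%), with a median of -0.04 against 0.01. The comparisons with a large excess of called members, Δfpr4 over wild type included, all contain the Δfpr4 library and so are not independent of each other. In Δfpr3Δfpr4Δtrf5 over Δfpr3Δtrf5, 17 members were called higher (background 20.7%) and 1 lower (background 7.42%), with a median of 0.24 against 0.20. After rescaling, 11 were called higher (13.2% of genes) and 3 lower (13.6%), and the median was 0.04. MAK5, NSA2, REI1, RLP7, SSF1 and TIF6 lost their call and NOP4 and RIX1 were added to the lower ones. The members' median thus lay close to that of all genes there.

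**Figure D2:**
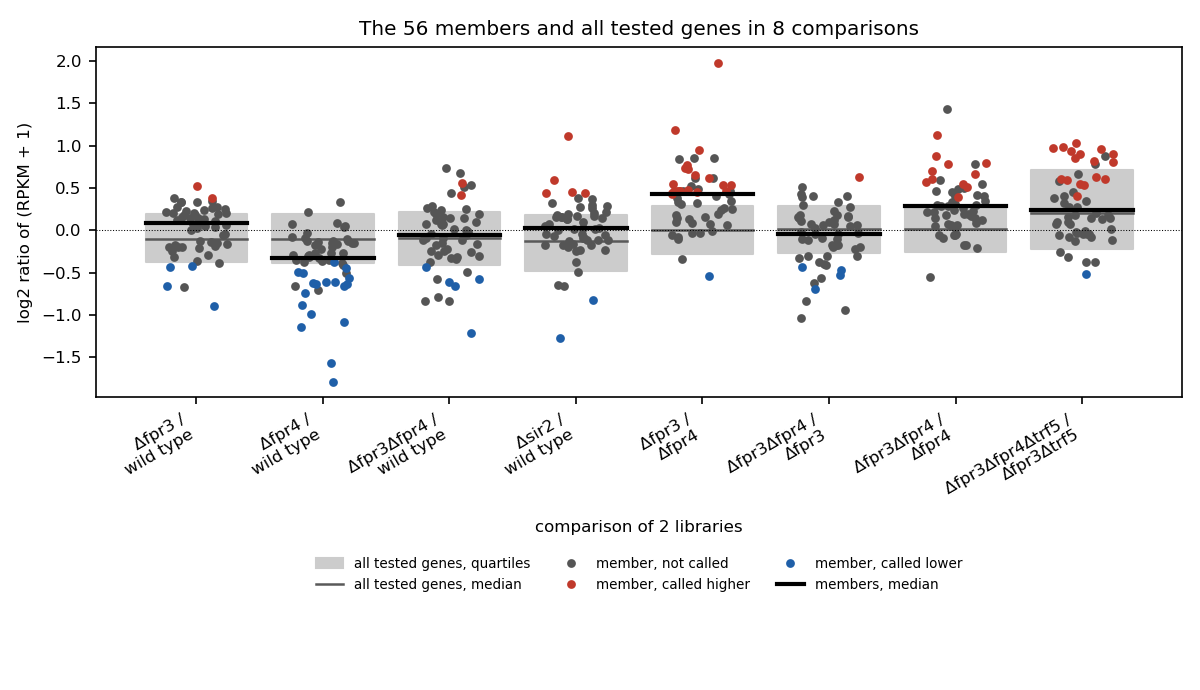
Log2 ratio of RPKM plus 1 of the 56 members (points) in 8 comparisons of 2 libraries, with the median of the members (black line) and the quartiles and median of all tested genes (grey). The members' median lies above the upper quartile of all genes for Δfpr3 over Δfpr4 (0.44 against 0.29) and for Δfpr3Δfpr4 over Δfpr4 (0.29 against 0.28), and for Δfpr4 over wild type it lies at -0.32, near the lower quartile of -0.39.

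The RNA helicases unwind the precursor at successive steps. In Δfpr4 over wild type, 8 of the 9 lay below the median of all genes (-0.10), with log2 ratios from -1.08 to -0.08 and 1 called (11.1%, near the background). DRS1 (YLL008W, chromosome XII, 131729 to 133987), which acts late in the nucleolus, had 136 reads in Δfpr3, 73 in Δfpr4, 86 in Δfpr3Δfpr4, 175 in Δsir2 and 149 in wild type. Both libraries without Fpr4 lay below the other 3. The log2 ratio was -1.08 in Δfpr4 over wild type (interval -1.53 to -0.69, chi-square adjusted p = 1.61e-06) and -0.66 in Δfpr3Δfpr4 over wild type (-1.08 to -0.29, adjusted p = 0.00495). HAS1, the helicase gene with the most reads, had 367 reads in Δfpr4 and 386 in wild type, and was not called there (-0.15). DBP6, which acts in the earliest particles with Dbp9, was called lower in Δfpr3 over wild type (180 and 241 reads, log2 ratio -0.42, chi-square adjusted p = 0.0239) while Δfpr4 had 240 reads. This call was lost after rescaling. DBP7 was highest in Δsir2, with 114 reads against 45 in wild type (1.11, interval 0.65 to 1.69, chi-square adjusted p = 3.95e-05), the highest ratio of any member in that comparison.

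The AAA ATPases pull factors off the particle. MDN1 (YLR106C, chromosome XII, 349006 to 363738) encodes the giant dynein-related ATPase that removes Ytm1 and later Rsa4 from the particle. It had 1787 reads in Δfpr3, 1097 in Δfpr4, 1020 in Δfpr3Δfpr4, 1440 in Δsir2 and 1366 in wild type, which is 111.0, 64.74, 68.59, 78.66 and 84.82 RPKM. It was the only member called higher in Δfpr3 over wild type (log2 ratio 0.38, interval 0.29 to 0.49, chi-square adjusted p = 4.44e-12) and lower in Δfpr4 over wild type (-0.38, -0.51 to -0.27, adjusted p = 1.71e-09). The direct ratio of Δfpr3 over Δfpr4 was 0.77 (0.67 to 0.89, chi-square adjusted p = 2.02e-43), and Δfpr3Δfpr4 over Δfpr3 gave -0.69 (-0.81 to -0.58, adjusted p = 9.67e-33). Δfpr3Δfpr4 thus resembled Δfpr4 and not Δfpr3 in this gene. The ratios to wild type lie close to the 1.3-fold limit, and the call in Δfpr4 over wild type was lost after rescaling.

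SDA1, a partner of the Rix1 particles, had 208 reads in Δfpr3, 157 in Δfpr4, 142 in Δfpr3Δfpr4, 293 in Δsir2 and 231 in wild type, and 92 in Δfpr3Δfpr4Δtrf5 against 173 in Δfpr3Δtrf5. The library without Fpr4 was the lower one in each pair. It was called lower in Δfpr4 over wild type (log2 ratio -0.62, chi-square adjusted p = 0.000395), in Δfpr3Δfpr4 over wild type (-0.58, adjusted p = 0.00158), in Δfpr3Δfpr4 over Δfpr3 (-0.43, adjusted p = 0.0439) and in Δfpr3Δfpr4Δtrf5 over Δfpr3Δtrf5 (-0.52, adjusted p = 0.0184), where no other member was called lower. In the Rix1 complex itself, RIX1 was at 0.08 in Δfpr4 over wild type, IPI1 at -0.39 on 27 and 34 reads, and IPI3 at -0.15, none of them called. IPI1 was called higher in Δfpr3Δfpr4 over Δfpr4 (53 and 27 reads, log2 ratio 1.13, interval 0.47 to 1.89, chi-square adjusted p = 0.00959).

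Of the GTPases, NUG1 alone was called lower in Δfpr4 over wild type, at either scaling (25% of 4 genes, where 9.27% of all genes were, and 5.4% after rescaling). This nuclear GTPase gene had 313 reads in Δfpr3, 241 in Δfpr4, 301 in Δfpr3Δfpr4, 348 in Δsir2 and 326 in wild type, so that only Δfpr4 lay apart. Its log2 ratio was -0.51 in Δfpr4 over wild type (interval -0.76 to -0.26, chi-square adjusted p = 0.000538) and 0.51 in Δfpr3Δfpr4 over Δfpr4 (0.26 to 0.76, adjusted p = 0.00145). LSG1, the cytoplasmic GTPase that releases Nmd3, was at -0.36 and NOG1 at -0.13 in Δfpr4 over wild type, neither called. NUG1 was among 5 members called lower in Δfpr4 over wild type and higher in both Δfpr3 and Δfpr3Δfpr4 over Δfpr4. The others were NOC2, MRT4, NSA2 and RLP7, and the last 3 lost the call against wild type after rescaling. Another 5 (DRS1, NOP12, NOP4, RPF1 and SDA1) were called lower over wild type in both Δfpr4 and Δfpr3Δfpr4, NOP4 not after rescaling. The share of all genes with either pattern was not counted.

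NOG2 (YNR053C, chromosome XIV, 721120 to 723112), which holds the particle in the nucleus until it is ready for export, went the other way. It had 329 reads in Δfpr3, 505 in Δfpr4, 471 in Δfpr3Δfpr4, 590 in Δsir2 and 381 in wild type, and 431 in Δfpr3Δfpr4Δtrf5 against 369 in Δfpr3Δtrf5. Δfpr3 was the lowest library and the other 3 mutants of the survey lay above wild type. NOG2 was the only member called lower in Δfpr3 over Δfpr4 (log2 ratio -0.54, interval -0.75 to -0.34, chi-square adjusted p = 4.11e-06) and the only one called higher in Δfpr3Δfpr4 over Δfpr3 (0.63, 0.43 to 0.84, adjusted p = 4.48e-08). Over wild type it was called higher in Δfpr3Δfpr4 (0.42, chi-square adjusted p = 0.00037) and in Δsir2 (0.44, adjusted p = 3.18e-05). In Δfpr4 over wild type it stood at 0.33, under the 1.3-fold limit, and was called only after rescaling. It was also called higher in Δfpr3Δfpr4Δtrf5 over Δfpr3Δtrf5 (0.61). NOG2 is also the only member with an intron, and the snoRNA gene SNR191 lies within its bounds on the same strand (chromosome XIV, 721938 to 722211, 274 bases). Reads were counted within gene boundaries, so reads of the snoRNA and its host cannot be told apart in this count.

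The methyltransferases modify bases or riboses of the 25S rRNA. SPB1 was called lower in Δfpr4 over wild type, with 150 reads against 219 (log2 ratio -0.61, interval -0.93 to -0.31, chi-square adjusted p = 0.000769), while NOP2 and RRP8 were both at -0.27 and not called. RRP8 had 82 reads in Δfpr3Δfpr4 against 53 in Δfpr4 and was called higher there (0.80, interval 0.30 to 1.34, chi-square adjusted p = 0.0178).

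The Nop7-Erb1-Ytm1 complex and the factors that bind the second internal spacer (Nop15, Cic1 and Rlp7) prepare that spacer for removal. In Δfpr4 over wild type 5 of the 6 genes lay below the median of all genes, with log2 ratios from -0.66 to -0.09. NOP15 and RLP7 were called lower (33.3%, where 9.27% of all genes were), neither of them after rescaling. NOP15 had 73 reads in Δfpr4 and 110 in wild type (log2 ratio -0.66, interval -1.11 to -0.23, chi-square adjusted p = 0.0173). RLP7, which encodes a relative of a ribosomal protein, had 176 reads in Δfpr3, 127 in Δfpr4, 171 in Δfpr3Δfpr4, 217 in Δsir2 and 170 in wild type, and again Δfpr4 alone was low. NOP7 was called in Δfpr3 over Δfpr4 only (585 and 457 reads, log2 ratio 0.43, chi-square adjusted p = 5.76e-05). CIC1 had 200 reads in Δfpr3Δfpr4, against 144 in Δfpr4 and 147 in wild type, and was called higher against each (0.66 and 0.56, chi-square adjusted p = 0.000888 and 0.00373). YTM1 was called lower in Δfpr3 over wild type, with 141 reads against 190 (-0.43, chi-square adjusted p = 0.0453), but not after rescaling or with Fisher's exact test.

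The Brix proteins and their partners build the early framework of the particle, and this group of 12 held the 2 lowest ratios in Δfpr4 over wild type (RRP14 and RPF1). RPF1 (YHR088W, chromosome VIII, 281495 to 282382) works in a module with Nsa1, Rrp1 and Mak16. It had 51 reads in Δfpr3, 23 in Δfpr4, 26 in Δfpr3Δfpr4, 31 in Δsir2 and 67 in wild type. Δfpr4, Δfpr3Δfpr4 and Δsir2 lay together, well below wild type. The log2 ratio to wild type was -1.57 in Δfpr4 (interval -2.37 to -0.91, chi-square adjusted p = 2.88e-05), -1.22 in Δfpr3Δfpr4 (-1.96 to -0.58, adjusted p = 0.00144) and -1.27 in Δsir2 (-1.96 to -0.66, adjusted p = 0.000204). These ratios share the wild-type library, which held the highest value of the survey for this gene.

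NSA1, of the same module, had 61 reads in Δfpr3 and 60 in Δfpr4, against 115 in wild type, and was called lower in both (log2 ratios -0.90 and -0.99, chi-square adjusted p = 0.000929 and 0.000154). It had 75 reads in Δfpr3Δfpr4 and 119 in Δsir2 and was not called in these. MAK16 had 17 reads in Δfpr4 and 27 in wild type (-0.71, interval -1.71 to 0.19), and RRP1 had 74 and 66 (0.09), neither called. RRP14, which acts with Ssf1 and Rrp15, had 5 reads in Δfpr4 against 20 in wild type (-1.79, interval -3.84 to -0.62, chi-square adjusted p = 0.0154). That is the lowest ratio of any member, and its interval is the widest. BRX1, the group's gene with the most reads, had 207 reads in Δfpr3, 165 in Δfpr4, 236 in Δfpr3Δfpr4, 299 in Δsir2 and 215 in wild type. It was called lower in Δfpr4 over wild type (-0.45, chi-square adjusted p = 0.0183) and higher in Δfpr3Δfpr4 over Δfpr4 (0.70, adjusted p = 6.37e-05). The call against wild type was lost after rescaling. EBP2, whose product binds Brx1, was called in Δfpr3 over Δfpr4 (178 and 129 reads, 0.53, chi-square adjusted p = 0.0131) and in Δfpr3Δfpr4 over Δfpr3 (118 and 178 reads, -0.47, adjusted p = 0.0423).

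SSF1 and SSF2 are paralogs that are identical at 92.07% of 1362 aligned bases. Reads that fit more than 1 place were removed, so that reads from stretches the pair shares would be lost, although no run of 100 bases in either gene occurs elsewhere in the genome. SSF1 had 89 reads in Δfpr3, 69 in Δfpr4, 92 in Δfpr3Δfpr4, 126 in Δsir2 and 73 in wild type. SSF2 had 34, 34, 20, 36 and 33 reads in the same order. SSF1 was called higher in Δsir2 over wild type (log2 ratio 0.59, chi-square adjusted p = 0.022). It was also called higher in Δfpr3Δfpr4Δtrf5 over Δfpr3Δtrf5 (92 and 77 reads, 0.63, adjusted p = 0.0161), but not after rescaling. SSF2 was called in no comparison. The paper reports SSF1 reads gathered toward the 5′ end in Δfpr3Δfpr4Δtrf5, and describes this bias as widespread among genes. A count over the whole gene does not tell such reads from those of full-length mRNA, in SSF1 or in other members.

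Noc2 forms dimers with Mak21 (Noc1) in early particles and with Noc3 in later ones. NOC2 had 366 reads in Δfpr3, 278 in Δfpr4, 362 in Δfpr3Δfpr4, 438 in Δsir2 and 410 in wild type, with Δfpr4 alone at the bottom. The log2 ratio was -0.63 in Δfpr4 over wild type (interval -0.86 to -0.41, chi-square adjusted p = 5.04e-07) and 0.57 in Δfpr3Δfpr4 over Δfpr4 (0.34 to 0.80, adjusted p = 3.86e-05). MAK21, the group's gene with the most reads, stood at -0.35 and NOC3 at -0.13 in Δfpr4 over wild type without a call.

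Among the other nucleolar and nuclear factors, 5 of 9 genes (55.6%) were called lower in Δfpr4 over wild type, where 9.27% of all genes were. After rescaling, which took the calls of MRT4 and NSA2, 3 were (33.3%, against 5.4% of all genes). All 9 lay below the median of all genes. LOC1, an RNA-binding factor that also serves mRNA localization, had 25 reads in Δfpr4 and 53 in wild type (log2 ratio -1.14, interval -1.91 to -0.45, chi-square adjusted p = 0.00721). NOP4, an RNA-binding protein of early particles, had 97 reads in Δfpr4 and 117 in Δfpr3Δfpr4, against 173 in wild type (-0.89 and -0.44, chi-square adjusted p = 1.41e-05 and 0.0489). NOP12 had 117 and 113 reads in the same mutants, against 187 in wild type (-0.74 and -0.61, chi-square adjusted p = 0.000177 and 0.00374). For NOP4 and NOP12 the libraries without Fpr4 both lay below wild type, and Δfpr3 stood between, with 146 and 163 reads.

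MRT4, which holds the place of the stalk protein P0 until the particle is in the cytoplasm, had 151 reads in Δfpr3, 96 in Δfpr4, 124 in Δfpr3Δfpr4, 164 in Δsir2 and 135 in wild type. NSA2, a late nuclear factor and the fifth gene called in this group, had 102, 64, 98, 122 and 93 reads in the same order. In both, Δfpr4 was alone below the rest. MRT4 had log2 ratios of -0.56 in Δfpr4 over wild type, 0.72 in Δfpr3 over Δfpr4 and 0.55 in Δfpr3Δfpr4 over Δfpr4 (chi-square adjusted p = 0.0244, 0.00186 and 0.0465). NSA2 had -0.61, 0.74 and 0.79 (chi-square adjusted p = 0.0484, 0.0121 and 0.00936). RLP24, which holds the place of a ribosomal protein, had the narrowest range of the group, with 192.18 to 221.1 RPKM over the survey.

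The 4 export and late cytoplasmic factors were the only role group with a median log2 ratio above 0 in Δfpr4 over wild type (0.04), which is 0.14 above the median of all genes. TIF6, which keeps the subunits apart until maturation ends, stood at 0.22, NMD3, the export adaptor, at 0.04 and the export factor ARX1 at 0.05, none of them called. ARX1 was called higher in Δfpr3, with 510 reads against 355 in wild type (0.52, interval 0.32 to 0.72, chi-square adjusted p = 5.22e-06) and 386 in Δfpr4. REI1, whose product releases Arx1 in the cytoplasm, had 54 reads in Δfpr3 and 58 in Δfpr4, against 86 in wild type, and was called lower in both (-0.66 and -0.63, chi-square adjusted p = 0.044 and 0.0483). Neither call was kept after rescaling or with Fisher's exact test. SLM6 overlaps REI1 on the opposite strand, and reads were counted by strand.

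**Figure D3:**
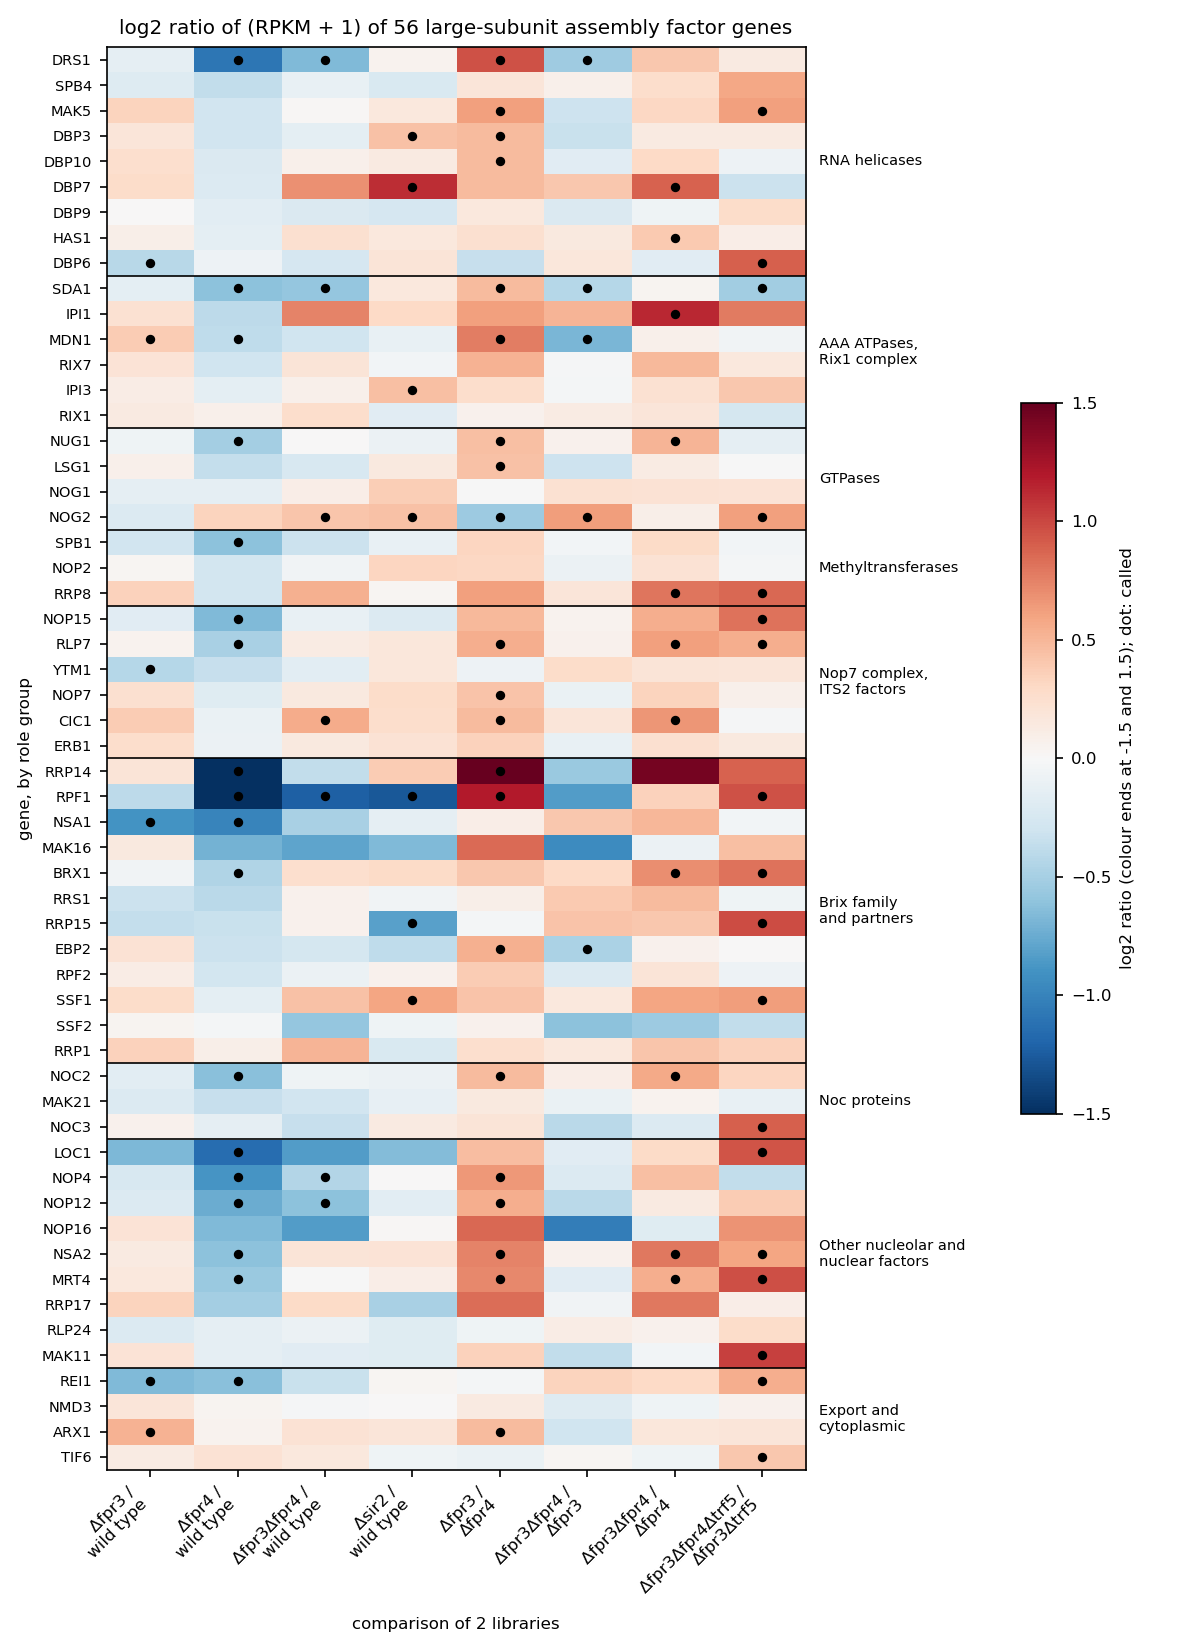
Log2 ratio of RPKM plus 1 of each of the 56 members (rows, in 9 role groups) in 8 comparisons of 2 libraries (columns), red where the first-named strain is higher and blue where it is lower, with a dot where the member was called. The Δfpr4 over wild type column is mostly blue, with 18 dots, and the Δfpr3 over Δfpr4 column holds 21 dots, of which NOG2 is the only blue one.

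The called members with the highest ratios in Δfpr3 over Δfpr4 were RRP14 (23 and 5 reads, log2 ratio 1.98, chi-square adjusted p = 0.006), RPF1 (51 and 23 reads, 1.19, adjusted p = 0.00714) and DRS1 (136 and 73 reads, 0.95, adjusted p = 7.53e-05), then MDN1 and NSA2. NOP16 (0.86), MAK16 (0.85) and RRP17 (0.84) stood between DRS1 and MDN1 but were not called. In all, 48 of the 56 stood above 0 in this ratio, and the share of called members was 35.71%. At 1.5-fold 8 of the 20 higher calls passed, and at 2-fold 2 did, so most of these differences were between 1.3-fold and 1.5-fold.

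**Figure D4:**
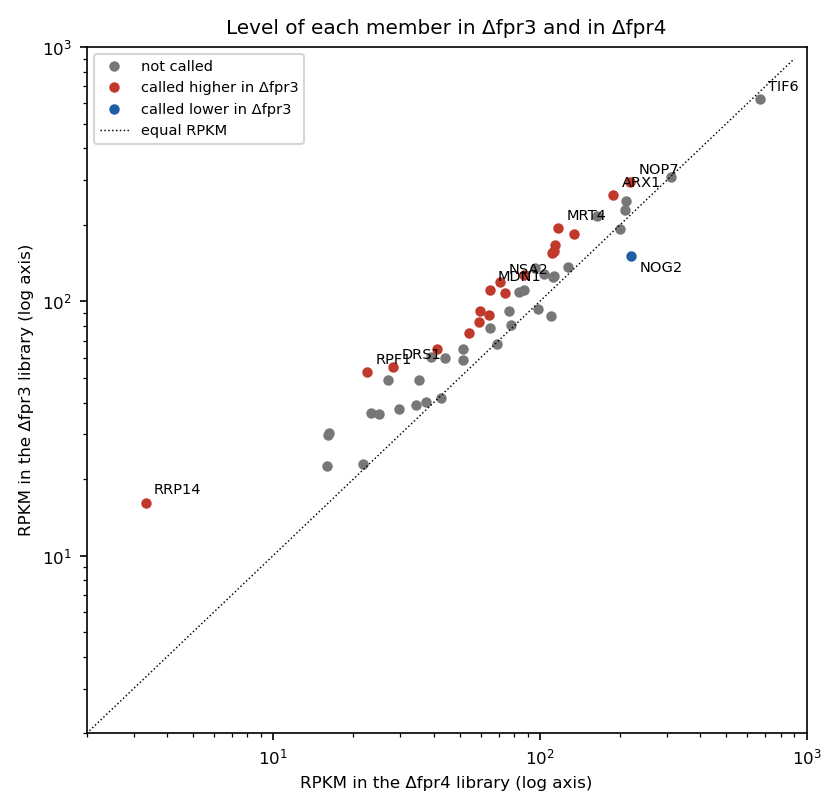
RPKM of each of the 56 members in the Δfpr3 library (vertical log axis) against the Δfpr4 library (horizontal log axis), with the line of equal RPKM. Of the points, 48 lie above the line, 20 are called higher in Δfpr3, and NOG2 is the only one called lower.

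The loss of Fpr4 can also be read in cells without Fpr3. In Δfpr3Δfpr4 over Δfpr3, the called members were MDN1, DRS1, EBP2 and SDA1 (lower) and NOG2 (higher). The lowest ratio was that of NOP16, at -1.04 on 10 and 23 reads, which was not called. Conversely, the loss of Fpr3 in cells without Fpr4 went with 11 higher calls, led by IPI1, DBP7 (68 and 41 reads, log2 ratio 0.88, chi-square adjusted p = 0.0172), RRP8, NSA2 and BRX1. The pooled reads of all members gave a log2 ratio of 0.07 for Δfpr3 over wild type (interval 0.03 to 0.10) and 0.23 for Δfpr3Δfpr4 over Δfpr4 (0.19 to 0.27). They gave -0.27 for Δfpr4 over wild type (-0.30 to -0.23) and -0.10 for Δfpr3Δfpr4 over Δfpr3 (-0.13 to -0.06). These ratios reuse the same 4 libraries. MDN1 weighed most in them, with 1787 of 12054 pooled reads in Δfpr3 and 1097 of 10085 in Δfpr4. It had 1020 of 10410 in Δfpr3Δfpr4 and 1366 of 11526 in wild type. Pooled ratios without MDN1 were not computed, and the median ratio of the members in Δfpr3Δfpr4 over Δfpr3 was -0.04.

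In the strains without Trf5, the members with the highest ratios of Δfpr3Δfpr4Δtrf5 over Δfpr3Δtrf5 were MAK11, a partner of Rlp24 (48 and 30 reads, log2 ratio 1.03, interval 0.37 to 1.77, chi-square adjusted p = 0.00639), RRP15 (67 and 44 reads, 0.98), MRT4 (152 and 101 reads, 0.97), RPF1 (66 and 44 reads, 0.96) and LOC1 (71 and 48 reads, 0.94). The chi-square adjusted p of the last 4 was 0.00197, 1.21e-06, 0.00265 and 0.00214. Of the 17 members called higher here, 8 (47.1%) were among the 18 called lower in Δfpr4 over wild type (44.4% of those), namely BRX1, LOC1, MRT4, NOP15, NSA2, REI1, RLP7 and RPF1. Among the 4682 genes tested in both comparisons, 78 were in both sets, which is 8.05% of those called higher here and 17.8% of those called lower in Δfpr4. After rescaling, the members in both sets were 2, LOC1 and RPF1 (18.2% of the 11 called in each), against 5.21% and 12.5% over all genes. Most of the members' shared calls thus depended on the scaling. These comparisons share no library. SDA1 was called lower in both at either scaling, and NOP4 after rescaling.

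Ratios in this comparison varied with gene length. The 28 shorter members (under 1462.5 bases) had a median log2 ratio of 0.55 with 13 called higher, and the 28 longer ones 0.11 with 4 called higher. Among all tested genes cut at the same length, the shorter had a median of 0.38 (27.2% called higher) and the longer 0.01 (12.1%). Spearman's correlation of the ratio with length was -0.45 over the 56 members and -0.35 over 4733 genes, as a description across genes of 1 pair of libraries. The sum of RPKM over all genes was 997861 in Δfpr3Δfpr4Δtrf5 and 868617 in Δfpr3Δtrf5. The part of length in the calls was not tested. In Δfpr4 over wild type the shorter and longer members had medians of -0.43 and -0.25, against -0.05 and -0.16 for all genes of those lengths.

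**Figure D5:**
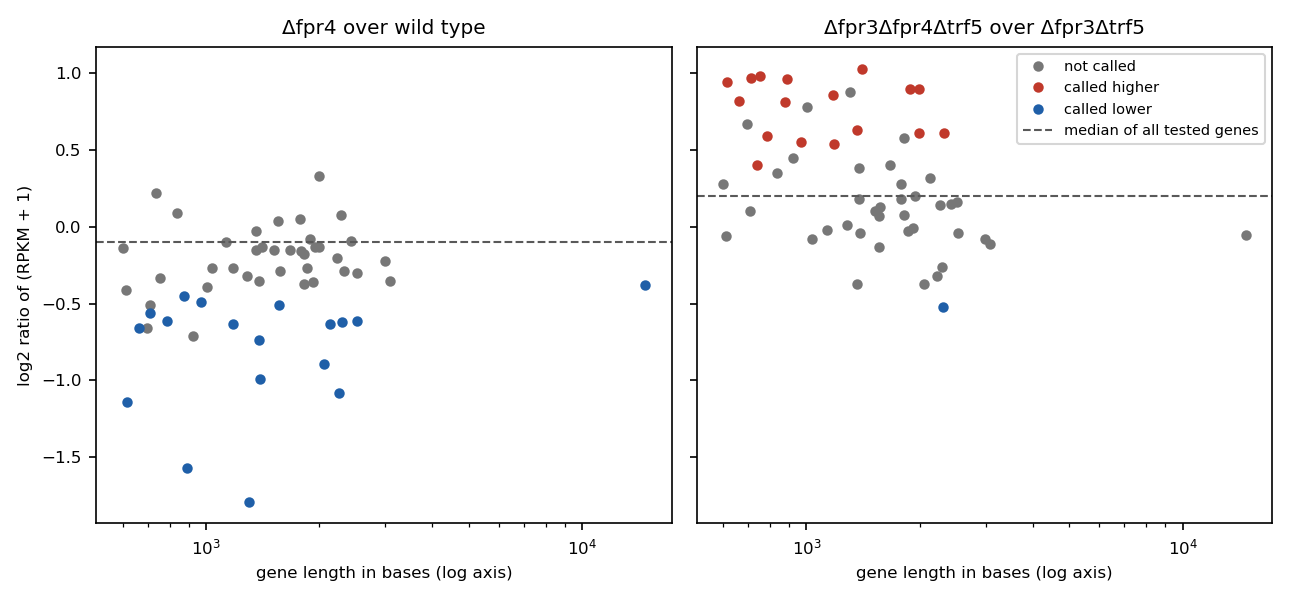
Log2 ratio of RPKM plus 1 of the 56 members against gene length (log axis) for Δfpr4 over wild type (left) and Δfpr3Δfpr4Δtrf5 over Δfpr3Δtrf5 (right), with the median of all tested genes as a dashed line. Of the 17 members called higher on the right, 13 are shorter than 1462.5 bases, while the 18 called lower on the left span the range of lengths.

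Members were also grouped by their promoter elements, and the groups with 5 or more members had similar medians in Δfpr4. In Δfpr4 over wild type, the 40 members with both cores had a median log2 ratio of -0.32 with 14 called lower, the 10 with the PAC core alone -0.32 with 2, and the 5 with the RRPE core alone -0.39 with 2. MAK11, with neither, stood at -0.13. In Δfpr3 over Δfpr4 the medians were 0.44, 0.51 and 0.26, and MAK11 stood at 0.34.

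Other genes of the pathway were read from fixed lists. Their counts in Δfpr4 over wild type are set beside the 9.27% of genes called lower and 3.87% called higher (5.4% and 6.11% after rescaling), and those in Δfpr3 over Δfpr4 beside 5.81% called higher. Of 29 further large subunit assembly factors, 4 (13.8%) were called lower and 0 higher in Δfpr4 over wild type (median log2 ratio -0.28), and 3 lower after rescaling (10.3%). In Δfpr3 over Δfpr4, 4 were called higher and 1 lower (0.44). Of 56 genes of the small subunit processome, 10 (17.9%) were called lower and 0 higher in Δfpr4 over wild type (-0.21), and after rescaling 6 lower (10.7%) and 1 higher. In Δfpr3 over Δfpr4, 12 were called higher (21.4%) and 0 lower (0.32). Of 15 RNA polymerase I genes, 0 were called in Δfpr4 over wild type (-0.14) at either scaling. In Δfpr3 over Δfpr4, 2 of them were called higher (13.3%) and 0 lower (0.32). Of 9 genes listed as regulators of ribosome synthesis, 1 (11.1%) was called lower in Δfpr4 over wild type (median -0.39), and 0 after rescaling. None was called in Δfpr3 over Δfpr4 (0.05). In Δfpr3 over wild type 0 were called at either scaling. In Δfpr3Δfpr4 over wild type 2 (22.2%) were called lower and 0 higher at either scaling, where 9.36% of genes were lower (6.35% after rescaling). In Δsir2 over wild type 3 (33.3%) were called lower and 1 (11.1%) higher, where 14.6% and 5.2% of genes were. After rescaling, the counts in Δsir2 were 2 (22.2%) and 1 (11.1%), against 9.63% and 8.77% of genes. In Δfpr3Δfpr4 over Δfpr4, 2 of 8 tested (25%) were called lower and 0 higher, where 2.67% of genes were lower.

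The 81 genes of large subunit ribosomal proteins are the partners that these factors assemble. Their medians lay above wild type in all 4 mutants of the survey. In Δfpr3 over wild type 16 (19.8%) were called higher and 0 lower (median 0.17), where 4.19% and 8.07% of all genes were. In Δfpr4 the counts were 9 (11.1%) and 0 (0.10), against 3.87% and 9.27%. In Δfpr3Δfpr4 they were 12 (14.8%) and 3 (3.7%), against 5.07% and 9.36% (0.13). In Δsir2 they were 35 (43.2%) and 0 (0.33), against 5.2% and 14.6%. After rescaling, 19, 16, 22 and 57 were called higher in the same order, and 0, 0, 3 and 0 lower. Those higher were 23.5%, 19.8%, 27.2% and 70.4%, against 6.29%, 6.11%, 7.49% and 8.77% of all genes. These comparisons share the wild-type library. In Δfpr3 over Δfpr4, 3 (3.7%) were called higher and 1 (1.23%) lower, against 5.81% and 5.35% of all genes. Their median there was 0.03, beside 0.44 for the assembly factors.

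Over all 8 comparisons, 14 of the 56 members were called neither without rescaling nor with it: DBP9, ERB1, MAK16, MAK21, NMD3, NOP16, RIX7, RLP24, RPF2, RRP1, RRP17, RRS1, SPB4 and SSF2. A further 3 (NOG1, NOP2 and RIX1) were called only after rescaling. NOG1 had 1058 reads in Δsir2 against 719 in wild type (1.294-fold, log2 ratio 0.37, chi-square adjusted p = 1.44e-06), just under the fold limit. The export adaptor gene NMD3, with 374 reads in Δfpr4 and 345 in wild type, had an interval of -0.17 to 0.26 around its log2 ratio of 0.04. NOP16, with 10 to 23 reads in the survey, could not show a difference of 1.3-fold at this depth.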

How the data were processed

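Ribo-minus RNA of 7 yeast strains was sequenced as paired ends, 1 library each. The authors aligned reads to sacCer3 with BWA, removed reads below a mapping quality of 5 (multi-mapping reads), collapsed duplicated fragments, and, of the properly paired reads, counted those of the gene's strand between its ends. The authors deposited, for every gene, the read count as a whole number, not normalized, and an RPKM value, whose column is headed with the name of another unit. Recomputed from count, length and total count, the RPKM differed by at most 0.09803% in genes with over 20 reads. Collapsing duplicates lowers the counts of abundant genes.

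Strains were taken from the labels, and total counts ran from 627679 to 1242534. A share of 3 reads was 0.0002414% to 0.000478% of a library. In each pair of libraries, the reads of a gene and those of all other genes were compared by a chi-square test (1 degree of freedom) with Benjamini-Hochberg adjustment at 0.05, among genes with more than 5 reads in both together, and a ratio of RPKM plus a pseudocount of 1 of at least 1.3-fold was required. Log2 ratios are on that scale, which understates changes of low genes. Their 95% intervals come from the exact binomial interval of the reads. The methods of the study state this test, its adjustment and its minimum of reads, while the pseudocount was chosen here. The rule was tested on simulated libraries that held counting error alone. Such libraries cannot show how often variation between cultures leads to a call.

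The members, the role groups, the pathway lists and the tests were chosen with earlier results of these data known. All 56 members may be named. Statistics were planned for called members, the 5 furthest in each direction where more were called. Some calls, such as those of DBP3, IPI3 and RRP15 in Δsir2 over wild type, enter the counts alone. Other members described are the lowest, highest and most read of each role group, and remaining names were chosen after their values were seen. Alternatives were rescaling to a median log2 ratio of 0, TMM factors (edgeR 4.0.16), pseudocounts of 0.1 and 5, other minimums of reads, 1.5-fold and 2-fold, no test, and Fisher's exact test. Equal sums of RPKM were added after seeing the data. Python 3.11.15, scipy 1.17.1 and R 4.3.3 were used. Promoter sequences were read from the RefSeq yeast genome, of the same assembly as sacCer3, and all 56 members matched its annotation.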

Additional observations from a re-analysis of the deposited data

Results flagged for a closer look

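The loss of Fpr4 was measured in strains with opposite signs of the members' median log2 ratio. The median was -0.32 for Δfpr4 over wild type, and 0.24 for Δfpr3Δfpr4Δtrf5 over Δfpr3Δtrf5. The difference between them was not tested, since each genotype has 1 library. Relative to the median of all tested genes, the members stood at -0.23 in Δfpr4 and at 0.04 in Δfpr3Δfpr4Δtrf5. In Δfpr3Δfpr4 over Δfpr3, where Fpr4 is also lost, they stood at -0.05. The strains also differ in origin (BY4741 strains or progeny of the cross), in FPR3, in TRF5 and in the plasmid that carries FPR4, and these cannot be told apart.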

How the results depend on the processing

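Pseudocounts, minimums of reads, Fisher's exact test and equal sums of RPKM moved no count of called members, both directions together, by over 1.5 times. By direction, Fisher's exact test left 2 of the 4 lower calls in Δfpr3 over wild type. A pseudocount of 5 left 1 higher call there, and equal sums of RPKM left 1 there and 1 in Δfpr3Δfpr4 over wild type. Equal sums also gave 11 higher and 3 lower in Δfpr3Δfpr4Δtrf5 over Δfpr3Δtrf5. At 1.5-fold the count was 2 in Δfpr3, 3 in Δfpr3Δfpr4 and 4 in Δsir2 over wild type, 8 in Δfpr3 over Δfpr4, 2 in Δfpr3Δfpr4 over Δfpr3 and 7 in Δfpr3Δfpr4 over Δfpr4. At 2-fold it was 0, 4, 1 and 2 in Δfpr3, Δfpr4, Δfpr3Δfpr4 and Δsir2 over wild type, 2 in Δfpr3 over Δfpr4, 0 in Δfpr3Δfpr4 over Δfpr3, 1 in Δfpr3Δfpr4 over Δfpr4 and 1 in Δfpr3Δfpr4Δtrf5 over Δfpr3Δtrf5. These fold limits remove calls by construction. With the fold limit and no test it was 17 in Δfpr3Δfpr4 and 11 in Δsir2 over wild type, 33 in Δfpr3 over Δfpr4, 17 in Δfpr3Δfpr4 over Δfpr3 and 23 in Δfpr3Δfpr4 over Δfpr4. Rescaling to a median of 0, and likewise TMM factors, gave 11 in Δsir2 over wild type, and turned the members' median for Δfpr3Δfpr4 over wild type to 0.03. For Δfpr4 over wild type these gave a median of -0.23 and 12 called members, 11 of them lower, and for Δfpr3 over Δfpr4 they kept 21. Of the 93 calls over all comparisons, rescaling kept 76, TMM factors 74, Fisher's exact test 88 and 2-fold 11. None turned round under any alternative run. MDN1 had 1097 reads or more in the Δfpr3, Δfpr4, Δsir2 and wild-type libraries, so its ratios are the most precise, while members with under 30 reads, such as RRP14, are known only within wide intervals. No paired analysis was possible because each group has 1 library.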
